A study of Mus musculus with 9 samples.

Results

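Ribosome assembly factors are proteins that fold, cut, modify and carry pre-ribosomal RNA and leave before the ribosome works. The 55 genes described here encode factors of the small-subunit (SSU) processome, the later small-subunit precursors and the large-subunit precursors. They were picked by gene name from the 15184 genes of the deposited RNA-Seq table, and all 55 were found. By known role, 32 of them were placed with the small (40S) subunit and 23 with the large (60S) subunit. *Rrp12*, *Nip7* and *Ftsj3* have roles in both subunits and were placed by their main one.

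The study asked what overexpression of the RNA-binding protein HNRNPK does to ribosome production. PolyA+ RNA was sequenced from mouse embryonic fibroblasts (MEFs), which are connective tissue cells grown from embryos. The cells were wild-type MEFs transduced with the lentiviral plasmids lentiMPHv2 and lentiSAMv2, which carry an activation system built on a Cas9 that does not cut, and they were then selected with antibiotics. The 3 Empty libraries are labelled with the genotype Empty vector, and the 3 SAM1 and 3 SAM2 libraries with the genotype Hnrnpk_SAM. The paper names lentiSAMv2 with a nontargeting guide RNA as its control. SAM1 and SAM2 are described below as lines, although the labels do not say which guide RNA each carried or whether the libraries of a line were separate cultures. The p-values therefore measure the spread between libraries, which may be technical. Where both lines are pooled against Empty, that spread also holds the difference between the lines. In *Rrp1b*, for example, the SE was 0.15 pooled and 0.037 for SAM1 against Empty.

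In the nucleolus, RNA polymerase I makes 1 long precursor that holds the 18S rRNA of the small subunit and the 28S rRNA of the large one. The UtpA complex binds the leading end of this precursor first, and UtpB, the U3 snoRNP, the Mpp10 complex and UtpC then join it to form the SSU processome, in which 18S rRNA is folded and cut free. The 60S precursor takes another route, in which early factors such as Brix1 and Rrs1, the PeBoW complex, GTPases and RNA helicases act in turn before the particle leaves the nucleus. Genes of this kind are expressed in all growing cells and are known targets of MYC.

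The 9 libraries held between 41759636 and 49026626 reads on the listed genes. Within groups, the members had a median SD of 0.040 on the log2 scale, and the lowest count of any member in any library was 1083 reads, for which counting error is 3.04% of the value. *Hnrnpk*, the gene the system targets, had normalized counts of 25058 to 26164 in Empty, 23619 to 24102 in SAM1 and 26221 to 26859 in SAM2, so that the 6 SAM libraries as 1 group did not have more of it (log2 fold change -0.032, limma adjusted p = 0.642). SAM1 was called lower than Empty (-0.11, limma adjusted p = 0.00252), and SAM2 changed by 0.044 (limma adjusted p = 0.159). The libraries are therefore named by their labels. The paper reports more *Hnrnpk* RNA by qRT-PCR and more HNRNPK protein by Western blot in its SAM MEFs, which are measurements other than these libraries. All 12 fibroblast markers were listed, and their summed level was 1042000 to 1133000 in Empty, 885500 to 941600 in SAM1 and 1165000 to 1203000 in SAM2. Most of that sum was *Fn1*, *Col1a1* and *Col1a2*, and single markers went apart, such as *Dcn* with 11477 to 11984 in Empty, 2680 to 2735 in SAM1 and 2481 to 2610 in SAM2, and *S100a4* with 12211 to 13918, 30483 to 34502 and 12962 to 13159. The 3 listed epithelial markers of 5 summed to 388 to 429 in Empty, 3733 to 3884 in SAM1 (mostly *Cldn4*, with *Epcam* and *Krt18* outside the table) and 243 to 275 in SAM2. The 4 endothelial markers summed to 301 to 357, 4613 to 4988 (mostly *Kdr*) and 638 to 689. For blood, neural and muscle cells, 1, 2 and 1 of 4 markers each were listed, with sums of 44.4 to 416 in Empty, 90.8 to 937 in SAM1 and 223 to 638 in SAM2. Their part in the results was not tested, and in RNA of whole cultures fewer cells of a type and less RNA per cell cannot be told apart.

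The promoters of the members shared few of the letters searched for. RefSeq promoters of GRCm38.p6 were at hand for 42 of the 55 genes. In the 250 bases before the start, the palindrome CACGTG, the E-box that MYC binds, stood in 5 of 42 genes (11.9%), against 9.72% of the 11165 listed genes with a promoter and 6.02% of all 32851 promoters in the table. The palindrome TCGCGA stood in 2 of them (4.76%, *Nol9* and *Nop14*), against 4.58% and 2.08%. The words do not overlap each other, and as palindromes they read the same on both strands. The 5 genes with CACGTG were *Nol11*, *Utp18*, *Rrp7a*, *Nop2* and *Wdr46*. The first 4 are printed with the word in capitals because they carried the same letters and did not move the same way: *Nol11* and *Utp18* fell in the SAM libraries, *Rrp7a* and *Nop2* rose, and *Wdr46* was not called. The sequences run 5′ to 3′ toward the start site on chr11:107189382-107189631 (minus strand), chr11:93885767-93886016 (minus strand), chr15:83122802-83123051 (minus strand) and chr6:125131633-125131882 (plus strand).
Nol11: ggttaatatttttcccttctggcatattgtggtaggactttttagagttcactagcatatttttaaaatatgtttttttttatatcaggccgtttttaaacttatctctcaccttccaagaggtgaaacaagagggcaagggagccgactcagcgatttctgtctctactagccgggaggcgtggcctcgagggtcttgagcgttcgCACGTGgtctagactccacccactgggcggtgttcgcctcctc
Utp18: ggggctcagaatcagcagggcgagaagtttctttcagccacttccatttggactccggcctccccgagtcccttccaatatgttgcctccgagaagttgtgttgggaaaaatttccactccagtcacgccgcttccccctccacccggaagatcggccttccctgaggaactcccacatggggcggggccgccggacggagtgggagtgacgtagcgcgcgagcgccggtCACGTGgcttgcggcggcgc
Rrp7a: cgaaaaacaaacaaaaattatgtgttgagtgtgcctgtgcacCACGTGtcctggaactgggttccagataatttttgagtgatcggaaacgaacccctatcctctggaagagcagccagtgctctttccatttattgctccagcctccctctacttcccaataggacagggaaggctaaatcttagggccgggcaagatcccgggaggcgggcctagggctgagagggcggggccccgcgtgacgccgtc
Nop2: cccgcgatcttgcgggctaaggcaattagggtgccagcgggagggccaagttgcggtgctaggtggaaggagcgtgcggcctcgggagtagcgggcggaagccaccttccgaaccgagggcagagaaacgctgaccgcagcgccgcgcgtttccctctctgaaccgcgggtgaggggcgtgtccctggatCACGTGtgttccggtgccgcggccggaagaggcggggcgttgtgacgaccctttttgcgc
The word began 43 bases before the start in *Nol11*, 20 in *Utp18*, 208 in *Rrp7a* and 60 in *Nop2*.

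The members moved in both directions when the 6 SAM libraries were set against the 3 Empty libraries. By limma on log2(normalized count + 1), with p-values adjusted over all 15184 genes and a threshold of 0.05, 23 of the 55 members fell, 11 rose and 21 were not called. Over all genes, 27.0% fell and 26.8% rose, so under this scaling the members that rose were a smaller share and those that fell (41.8%) a larger share than among all genes. The members had a median log2 fold change of -0.11, against 0.0087 for all genes. All 6 SAM libraries lay below all 3 Empty libraries in 25 members and above them in 12, where 27.2% and 25.9% of all genes did so. The changes ran from -0.65 in *Rrs1* to 0.96 in *Ngdn*.

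The split between rise and fall depended on how libraries were scaled. When each library was given the same total, the median of all genes moved up by 0.12, and 21 members were called higher and 13 lower, where 35.2% of all genes were higher and 18.7% lower. The members' median moved with that of all genes, to 0.010 against 0.13. This scaling took 10 calls away and added 10. Quantile normalization gave 13 higher and 23 lower, where 24.9% and 28.7% of all genes were, and a members' median of -0.063 against -0.036. Under neither scaling did a called member change its sign, so the direction of each member named below as rising or falling over both lines held under both.

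**Figure D1:**
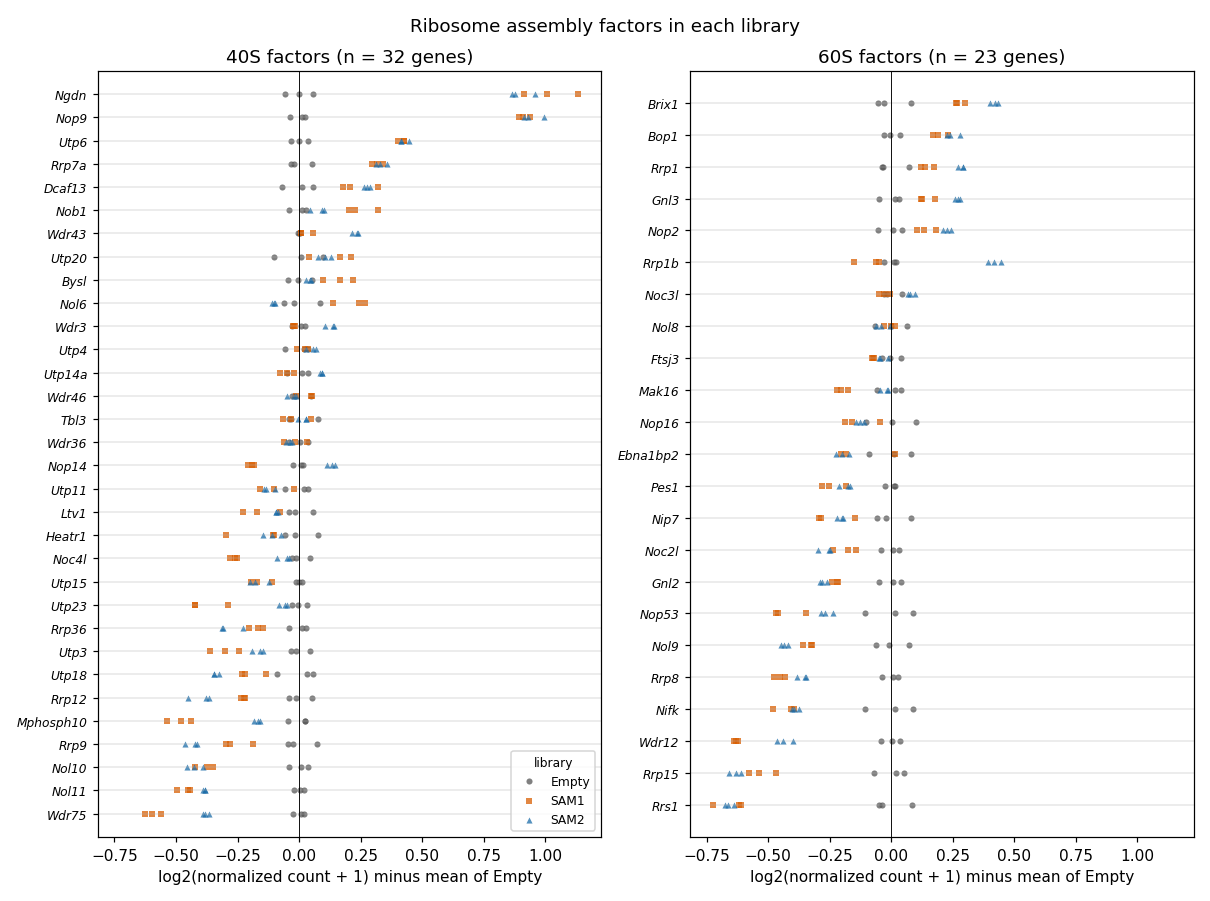
Each point is 1 library, and the x axis gives its log2(normalized count + 1) minus the mean of the 3 Empty libraries for the gene on the y axis, with 40S factors on the left and 60S factors on the right, sorted by change. *Ngdn* and *Nop9* stand furthest to the right, *Rrs1*, *Rrp15* and *Wdr12* furthest to the left, and the SAM1 and SAM2 points part in *Rrp1b*, *Nop14* and *Nol6*.

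Among the 40S factors, the UtpA complex was divided. UtpA opens SSU processome assembly and is also needed for making the precursor itself. *Wdr75*, which encodes its UTP17 subunit, had normalized counts of 5703, 5576 and 5755 in Empty, 3747, 3676 and 3851 in SAM1, and 4403, 4328 and 4358 in SAM2. Both lines lay below Empty, SAM1 the lower of them, and the log2 fold change over both was -0.49 (SE 0.068, limma adjusted p = 0.000247). *Nol11*, whose protein binds UTP4, had 4648, 4724 and 4778 in Empty, 3466, 3340 and 3451 in SAM1, and 3620, 3597 and 3621 in SAM2. It fell by 0.42 (SE 0.037, limma adjusted p = 1.23e-05), with no overlap between SAM and Empty. *Utp15* fell less, by 0.16 (SE 0.034, limma adjusted p = 0.00318), from 3416, 3443 and 3380 in Empty to 3034, 2983 and 3162 in SAM1 and 3013, 3140 and 2974 in SAM2, and the call was lost with equal totals.

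The other subunits of UtpA did not pass the test. *Heatr1*, the large UTP10 scaffold, had 6080, 5539 and 5694 in Empty, 5364, 4688 and 5377 in SAM1, and 5348, 5204 and 5485 in SAM2. Its 6 SAM values lay below the Empty values, yet the change of -0.14 missed the threshold (SE 0.055, limma adjusted p = 0.0574). Without the SAM1 library at 4688 the value was -0.11 and was called, and with the replicate number as a block -0.14 was called. *Utp4*, whose human counterpart is mutated in a childhood liver cirrhosis, had 6046, 5677 and 5994 in Empty, 6005, 5873 and 6053 in SAM1, and 6187, 6133 and 6027 in SAM2. The groups overlapped and the change was 0.034 (limma adjusted p = 0.424). *Wdr43*, the UTP5 subunit, had 7021, 7009 and 7044 in Empty, 7067, 7062 and 7309 in SAM1, and 8261, 8298 and 8151 in SAM2. It was called higher in SAM2 (0.23, limma adjusted p = 3.62e-06), while SAM1 changed by 0.024 (limma adjusted p = 0.412) and both lines by 0.13 (limma adjusted p = 0.126). With equal totals and with quantile normalization *Utp4* and *Wdr43* were called higher, *Wdr43* also in SAM1.

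A ratio of 2 genes within a library does not change when the library is multiplied by 1 factor. The ratio of *Wdr43* to *Wdr75* counts, which are not corrected for length and are compared between libraries only, was 1.22 to 1.26 in Empty, 1.89 to 1.92 in SAM1 and 1.87 to 1.92 in SAM2. The Empty range lay clear of both lines, while the lines overlapped. A ratio must part in this way where all SAM values of 1 gene lie above Empty and those of the other below. It then gives only the size of the gap. For *Heatr1* to *Wdr75*, which both lay below Empty, the ratio was 0.989 to 1.07, 1.28 to 1.43 and 1.20 to 1.26. Here the lines did not overlap either, with SAM1 the furthest from Empty.

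UtpB joins UtpA on the leading spacer. Of its 5 subunits among the 55 genes 1 rose, 1 fell and 3 were not called, and with equal totals 4 were higher and 0 lower. *Pwp2*, the UTP1 subunit, is not among the 55 and fell by 0.17 (limma adjusted p = 0.00422). *Utp6* had 2257, 2152 and 2202 in Empty, 2913, 2957 and 2962 in SAM1, and 2935, 2938 and 3005 in SAM2. All SAM values lay above all Empty values, the lines overlapped, and the log2 fold change was 0.42 (SE 0.032, limma adjusted p = 4.69e-06). *Utp18*, whose protein is its partner within the complex, fell by 0.27 (SE 0.058, limma adjusted p = 0.0034), although the call was lost with equal totals. The ratio of *Utp6* to *Utp18* rose from 0.466 to 0.531 in Empty to 0.719 to 0.770 in SAM1 and 0.815 to 0.845 in SAM2. *Tbl3*, *Wdr36* and *Wdr3*, the WD-repeat subunits UTP13, UTP21 and UTP12, changed by 0.00064, -0.027 and 0.055 and were not called, although with equal totals they were called higher. For *Tbl3*, 40.3% of the exon bases lie opposite *Noxo1*, and the sources used here do not state whether reads were counted by strand.

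**Figure D2:**
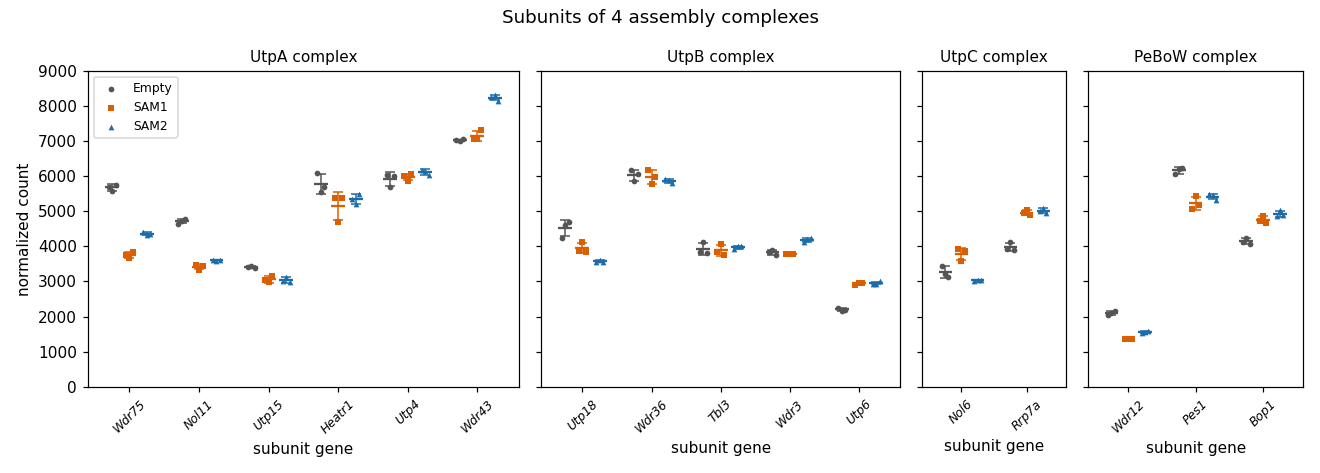
Normalized counts (y axis) of the subunit genes (x axis) of UtpA, UtpB, UtpC and PeBoW, with 1 point per library, bars at the mean and whiskers of 1 SD (n = 3). Counts are not corrected for gene length, so groups are to be compared within a gene: *Wdr75*, *Nol11* and *Wdr12* drop in both lines while *Utp6*, *Rrp7a* and *Bop1* climb.

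The 2 genes placed with UtpC, which joins the processome with casein kinase 2, were both higher in SAM1, and 1 of them was higher in SAM2. *Rrp7a* had 3927, 4123 and 3894 in Empty, 4963, 5040 and 4882 in SAM1, and 5001, 5095 and 4943 in SAM2. It rose by 0.33 (SE 0.033, limma adjusted p = 2.98e-05), with the lines on top of each other. *Nol6*, the UTP22 homolog, had 3448, 3208 and 3117 in Empty, 3915, 3585 and 3856 in SAM1, and 3019, 3032 and 3037 in SAM2. SAM1 lay above Empty (0.22, limma adjusted p = 0.00043) and SAM2 below it (-0.10, limma adjusted p = 0.0438), so that both lines pooled gave 0.057 (limma adjusted p = 0.657). With equal totals SAM2 was at 0.00035.

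Of the Mpp10 complex, the Sas10-domain proteins and the U3 snoRNP, 3 genes fell and 1 rose, and with equal totals 1 fell and 1 rose. *Ngdn*, which encodes the Sas10-domain protein neuroguidin, had 1219, 1319 and 1265 in Empty, 2548, 2784 and 2387 in SAM1, and 2331, 2462 and 2310 in SAM2. Every SAM library lay far above every Empty library, and the log2 fold change of 0.96 was the largest of all members (SE 0.063, limma adjusted p = 1.93e-06). *Mphosph10*, the scaffold that carries Imp3 and Imp4 to the U3 RNA, had 2605, 2732 and 2731 in Empty, 1930, 1984 and 1852 in SAM1, and 2368, 2393 and 2409 in SAM2. Its change was -0.33 over both lines (SE 0.096, limma adjusted p = 0.0167), -0.48 in SAM1 and -0.17 in SAM2. This call was lost without Empty replicate 2 or Empty replicate 3, at a value of -0.32 each, and with equal totals (-0.20). *Utp3* (Sas10) fell by 0.23 and *Rrp9*, which binds the U3 snoRNA, by 0.34. The ratio of *Ngdn* to *Mphosph10* was 0.463 to 0.483 in Empty, 1.29 to 1.40 in SAM1 and 0.959 to 1.03 in SAM2.

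The 11 other early 40S factors held both large rises and large falls, with 2 rising, 2 falling and 7 not called. With equal totals 5 were higher and 1 lower, and with quantile normalization 3 and 4. *Nop9*, a PUF-like protein that binds the precursor near the end of 18S rRNA, had 1569, 1634 and 1623 in Empty, 2991, 3084 and 3021 in SAM1, and 3063, 3205 and 3035 in SAM2. The lines did not differ beyond their spread (0.032, limma adjusted p = 0.428), and the rise of 0.93 had the smallest p-value among the members (SE 0.036, limma adjusted p = 7.6e-08). On the opposite strand *Cideb* covers 18.7% of its exon bases. *Dcaf13*, the SOF1 homolog, rose by 0.26 (SE 0.044, limma adjusted p = 0.000888), from 4583, 5001 and 4848 in Empty to 5542, 5996 and 5439 in SAM1 and 5823, 5870 and 5774 in SAM2.

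*Nol10*, the ENP2 homolog, had 2564, 2514 and 2435 in Empty, 1868, 1962 and 1932 in SAM1, and 1912, 1860 and 1824 in SAM2. Both lines lay well below Empty and overlapped each other, with a fall of 0.40 (SE 0.038, limma adjusted p = 1.91e-05). *Rrp36* had the lowest mean count of all members, with 1450, 1521 and 1501 in Empty, 1294, 1348 and 1326 in SAM1, and 1199, 1272 and 1203 in SAM2. It fell by 0.23 (SE 0.051, limma adjusted p = 0.00398), a call that equal totals removed. *Utp23* is described with the lines below, as is *Nop14*. *Noc4l* (-0.16), *Utp11* (-0.11), *Wdr46* (0.0014), *Utp14a* (0.021) and *Utp20* (0.12) were not called. With equal totals *Utp14a*, *Utp20* and *Wdr46* were called higher, and with quantile normalization *Utp20* higher and *Noc4l* lower.

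Late factors of the 40S precursor act after it has left the processome. *Rrp12*, an export factor of both precursors, fell by 0.31 (SE 0.061, limma adjusted p = 0.00193). *Ltv1*, which must leave before the 40S subunit can translate, fell by 0.12 (SE 0.045, limma adjusted p = 0.0409). *Nob1*, the endonuclease that makes the final end of 18S rRNA, rose by 0.17 (SE 0.062, limma adjusted p = 0.0461), and *Bysl*, the ENP1 homolog, changed by 0.10 (limma adjusted p = 0.122). With quantile normalization the calls of *Ltv1* and *Nob1* were lost, and with equal totals that of *Ltv1*, at -0.0019.

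Among the 60S factors, the PeBoW complex was split as well. Its 3 proteins, Pes1, Bop1 and Wdr12, bind each other and are needed to mature the rRNAs of the large subunit. *Wdr12* had 2044, 2109 and 2154 in Empty, 1364, 1350 and 1359 in SAM1, and 1522, 1551 and 1593 in SAM2. It fell by 0.53 (SE 0.066, limma adjusted p = 0.000112), further in SAM1 than in SAM2. *Pes1* had 6051, 6215 and 6218 in Empty, 5074, 5421 and 5172 in SAM1, and 5480, 5453 and 5323 in SAM2. It fell by 0.21 (SE 0.036, limma adjusted p = 0.000883), although with equal totals it did not pass the threshold.

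*Bop1* moved the other way, from 4131, 4250 and 4067 in Empty to 4728, 4871 and 4670 in SAM1 and 4855, 5030 and 4893 in SAM2. All SAM libraries lay above Empty, with a rise of 0.22 (SE 0.035, limma adjusted p = 0.000541). The ratio of *Bop1* to *Wdr12* was 1.89 to 2.02 in Empty, 3.43 to 3.61 in SAM1 and 3.07 to 3.24 in SAM2, and that of *Bop1* to *Pes1* was 0.654 to 0.684, 0.898 to 0.932 and 0.886 to 0.923. For both ratios the SAM libraries lay clear of Empty. This follows from *Bop1* lying above Empty, and *Wdr12* and *Pes1* below it, in all SAM libraries.

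Of 13 early 60S factors, 5 fell, 3 rose and 5 were not called. *Rrs1*, which with Rpf2 places the 5S RNP on the precursor, had 4728, 5190 and 4769 in Empty, 3190, 3206 and 2961 in SAM1, and 3061, 3088 and 3141 in SAM2. The lines overlapped, at a fold of 0.635 over Empty, and the fall of 0.65 was the largest of the members (SE 0.043, limma adjusted p = 1.96e-06). A long noncoding RNA gene lies opposite 39.4% of its exon bases. *Rrp15* had 2374, 2580 and 2521 in Empty, 1669, 1799 and 1714 in SAM1, and 1633, 1577 and 1607 in SAM2. Its fall was 0.58 (SE 0.051, limma adjusted p = 1.19e-05). *Nifk*, a nucleolar partner of the proliferation protein Ki-67, had 3470, 3975 and 3773 in Empty, 2816, 2839 and 2674 in SAM1, and 2882, 2822 and 2836 in SAM2, a fall of 0.41 (SE 0.047, limma adjusted p = 6.93e-05).

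*Brix1*, which works beside Rrs1 on the same precursor, moved against it. It had 3983, 4370 and 4048 in Empty, 4968, 5078 and 4962 in SAM1, and 5533, 5574 and 5461 in SAM2. SAM2 stood above SAM1 and both above Empty, with a rise of 0.35 (SE 0.054, limma adjusted p = 0.000508). *Rrp1* had the highest mean count of the members, with 7302, 7862 and 7311 in Empty, 8236, 8440 and 8147 in SAM1, and 9175, 9177 and 9034 in SAM2, a rise of 0.21 (SE 0.053, limma adjusted p = 0.00713). *Gnl3*, which encodes the nucleolar GTPase nucleostemin, rose by 0.21 (SE 0.048, limma adjusted p = 0.00542). *Noc2l* fell by 0.23 and *Ebna1bp2* by 0.16, calls that equal totals removed. *Nop16* (-0.13), *Mak16* (-0.11), *Nol8* (-0.020), *Noc3l* (0.026) and *Rrp1b* (0.17) were not called.

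Of the 7 GTPases, enzymes and late 60S factors, 5 fell and 1 rose. *Rrp8*, a methyltransferase of 28S rRNA, had 2194, 2291 and 2262 in Empty, 1665, 1643 and 1617 in SAM1, and 1765, 1724 and 1770 in SAM2. It fell by 0.41 (SE 0.043, limma adjusted p = 4.11e-05), with SAM1 under SAM2 and SAM2 under Empty. *Nol9*, the kinase that prepares the cut spacer before 28S rRNA for trimming, fell by 0.38, *Nop53*, which guides the exosome to that spacer, by 0.34, the GTPase gene *Gnl2* by 0.25 and *Nip7* by 0.22, although the call of *Nip7* was lost with equal totals (-0.10). *Nop2*, another 28S rRNA methyltransferase, rose by 0.18 (SE 0.042, limma adjusted p = 0.00477). *Ftsj3*, the SPB1 homolog, changed by -0.055 (limma adjusted p = 0.18).

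Set against each other, the changes of the 60S factors lay lower than those of the 40S factors. Per kilobase of exon, counts in Empty ran from 224 to 2480 among 40S factors (median 604) and from 165 to 2390 among 60S factors (median 945), so the classes overlapped in level. In SAM against Empty, 11 of 32 40S factors fell and 6 rose, with a median log2 fold change of -0.029, and 12 of 23 60S factors fell and 5 rose, with a median of -0.16. Of all genes, 27.0% fell and 26.8% rose. With equal totals the 40S factors had 15 higher and 5 lower, with a median of 0.094, and the 60S factors 6 higher and 8 lower, with a median of -0.039, both below the median of 0.13 of all genes under that scaling. It called 35.2% of all genes higher and 18.7% lower. The difference of the medians, 40S minus 60S, was 0.13, and it was 0.13 with equal totals and 0.14 with quantile normalization. It was 0.11 in SAM1 and 0.14 in SAM2, but 0.046 and 0.087 with quantile normalization.

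This difference could be followed in each library. With every gene set to its Empty mean, the 40S median minus the 60S median lay between -0.024 and 0.028 in the Empty libraries, between 0.10 and 0.13 in SAM1 and between 0.12 and 0.14 in SAM2, with an SD within groups of 0.017. All 6 SAM libraries thus lay above all 3 Empty libraries, whose values are held near 0 by setting genes to the Empty mean. With 53.9% of all genes called, other sets of genes may part in the same way, which was not examined. Genes are not replicates, so no test was made of the classes. The value rested in part on single libraries, as it was 0.077 without Empty replicate 2 and 0.19 without Empty replicate 1.

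**Figure D3:**
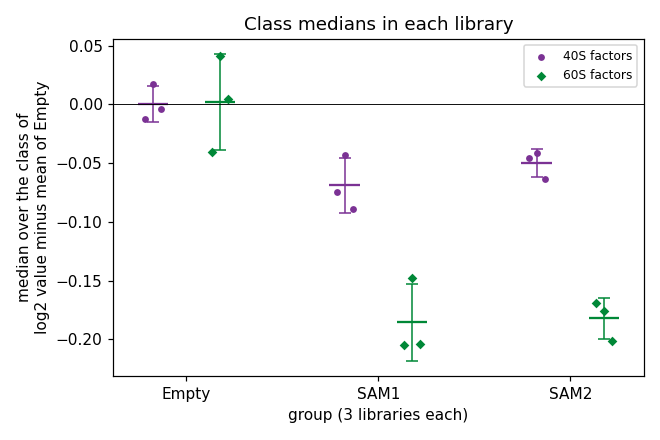
The y axis gives the median over the 32 40S or 23 60S factors of log2(normalized count + 1) minus the Empty mean, for each library (points) of the groups on the x axis, with the group mean (bar) and SD (whiskers, n = 3). The 60S medians of the SAM libraries lie between -0.20 and -0.15, below their 40S medians of -0.089 to -0.041.

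The same order was seen in assembly factors outside the 55. They were measured in the same libraries, with lists chosen when earlier results of these data were known. They are therefore no independent check. Of 31 other 40S factors, 10 fell and 4 rose, with a median of -0.068, and of 43 other 60S factors, 25 fell and 6 rose, with a median of -0.21. The difference of these medians was 0.14. Of all genes, 27.0% fell and 26.8% rose. With equal totals the counts were 5 lower and 13 higher for 40S, and 12 lower and 13 higher for 60S. Under that scaling 18.7% of all genes were lower and 35.2% higher. Among the 40S factors, *Imp4*, a partner of Mphosph10, fell by 0.42, *Trmt112*, a cofactor of rRNA methyltransferases, by 0.53 and *Utp25* by 0.36, while *Tsr1* rose by 0.42, the GTPase gene *Bms1* by 0.26 and the rRNA acetyltransferase gene *Nat10* by 0.19. Among the 60S factors, *Rsl24d1* fell by 0.53, *Mdn1*, a giant ATPase that strips factors from the 60S precursor, by 0.43 and *Nsa2* by 0.42. *Pelp1* and *Las1l*, whose proteins belong to one complex, rose by 0.63 and 0.35, and the helicase gene *Ddx27* by 0.39.

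Line by line, more members passed the test. In SAM1 against Empty, 30 members fell and 14 rose, with a median of -0.13, where 36.9% of all genes fell and 37.3% rose. In SAM2 against Empty, 25 fell and 16 rose, with a median of -0.063, where 35.3% and 35.2% did. With equal totals the counts were 18 lower and 24 higher in SAM1, where 27.0% and 47.6% of all genes were, and 17 lower and 22 higher in SAM2, where 27.2% and 43.2% were, and quantile normalization gave 25 lower and 18 higher in SAM1, where 39.6% and 34.3% were. Both comparisons use the same Empty libraries. Calls in the same direction in both lines were made for 22 falling and 10 rising members. In 3 members, *Nop14*, *Nol6* and *Rrp1b*, the lines were called in opposite directions, which held for *Nop14* alone with quantile normalization and for none of them with equal totals.

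The lines themselves were then compared, a contrast that does not use the Empty libraries. SAM2 was higher than SAM1 in 20 members and lower in 10, with a median of 0.037, where 31.1% of all genes were higher and 29.2% lower. With equal totals the counts were 15 and 13 (26.9% and 33.5% of all genes), and with quantile normalization 12 and 16 (30.4% and 28.8%). The widest gap was in *Rrp1b*, a paralog of *Rrp1*, which had 2040, 1968 and 2026 in Empty, 1928, 1809 and 1945 in SAM1, and 2640, 2688 and 2742 in SAM2. SAM2 stood alone above the other groups (0.51 over SAM1, SE 0.037, limma adjusted p = 8.83e-08), and SAM1 lay just below Empty (-0.087, limma adjusted p = 0.0466), or at 0.055 with equal totals (limma adjusted p = 0.17).

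*Nop14*, which forms a stable pair with Noc4l, had 5701, 5539 and 5666 in Empty, 4879, 4937 and 4967 in SAM1, and 6183, 6095 and 6234 in SAM2. SAM1 was below and SAM2 above Empty without overlap, a gap of 0.32 (SE 0.027, limma adjusted p = 2.97e-07). *Utp23*, a PIN-domain protein of the processome, had 1822, 1902 and 1853 in Empty, 1388, 1520 and 1388 in SAM1, and 1784, 1795 and 1758 in SAM2. SAM1 alone was called lower than Empty (-0.38, limma adjusted p = 2.12e-06), SAM2 changed by -0.063 (limma adjusted p = 0.189), and the gap between the lines was 0.31 (SE 0.041, limma adjusted p = 2.37e-05). *Mphosph10* had a gap of 0.31 and *Wdr75* of 0.22, in both cases with SAM1 the lower line. *Nol6* showed the reverse order, with a value of -0.32 for SAM2 minus SAM1 (SE 0.042, limma adjusted p = 2.6e-05). The gaps of these 6 members were called with the same sign under both other scalings.

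**Figure D4:**
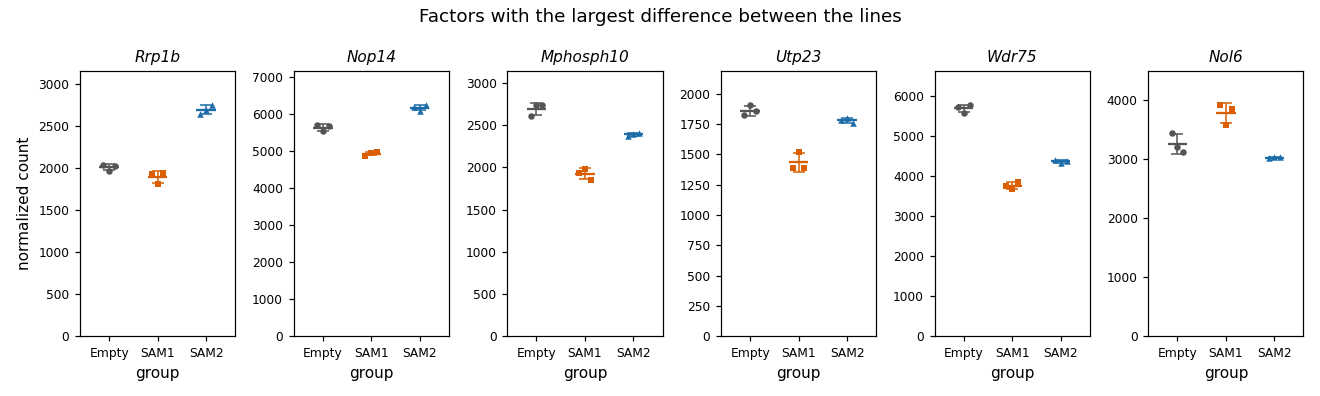
Normalized counts (y axis, from 0) of the 6 members with the widest gap between SAM1 and SAM2, by group (x axis), with 1 point per library, the mean (bar) and SD (whiskers, n = 3). *Rrp1b* and *Nop14* are highest in SAM2, *Nol6* is highest in SAM1, and *Mphosph10*, *Utp23* and *Wdr75* are lowest in SAM1.

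The position of the members was a property the choice of genes did not use, and it ran with their change. On GRCm39 all 5 members on chromosome 1 fell (*Rrs1*, *Rrp15*, *Wdr12*, *Wdr75* and *Nifk*), as did all 3 on chromosome 7 (*Rrp8*, *Nop53* and *Mphosph10*) and 4 of 6 on chromosome 4. All 3 on chromosome 14 rose (*Ngdn*, *Nop9* and *Gnl3*), as did 4 of 5 on chromosome 15 (*Brix1*, *Rrp7a*, *Dcaf13* and *Bop1*), the other being *Utp23*. The counts for chromosomes 1, 14 and 15 held with equal totals, and those for chromosomes 7 and 4 became 2 of 3 and 2 of 6. The 4 members that fell most lay on chromosome 1 but far apart, with *Rrs1* at chr1:9615633-9617680 and *Rrp15* at chr1:186448398-186481555, while *Ngdn* (chr14:55252861-55261845) and *Nop9* (chr14:55983136-55994598) are close neighbours.

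The other genes on these chromosomes moved in the same direction. The median log2 fold change of listed genes other than members was -0.18 on chromosome 1 (860 genes), -0.24 on chromosome 7 (1082 genes) and -0.15 on chromosome 4 (865 genes), and it was 0.55 on chromosome 14 (510 genes) and 0.26 on chromosome 15 (591 genes). Across the 55 members, the change correlated with the median of the chromosome with a Pearson r of 0.78 and a Spearman rho of 0.74, and without chromosome 14 with 0.68 and 0.70 over 52 members. This is a description across genes that share the same libraries, and members of 1 chromosome share its median.

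Grouped by that median, the 23 members on chromosomes below -0.1 held 16 that fell and 0 that rose, against 39.4% and 15.5% of the 6194 other genes there. At an unadjusted p below 0.05 limma also called 0 of them higher, as did edgeR and DESeq2 on reads recovered from the values. On chromosomes above 0.1, 8 of 16 members rose and 1, *Rrp36*, fell, against 44.4% and 11.1% of the 4118 other genes. In between, 3 of 16 rose and 6 fell, against 27.0% and 24.9% of 4406 genes. The medians of the members in these groups were -0.25, 0.17 and -0.017.

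**Figure D5:**
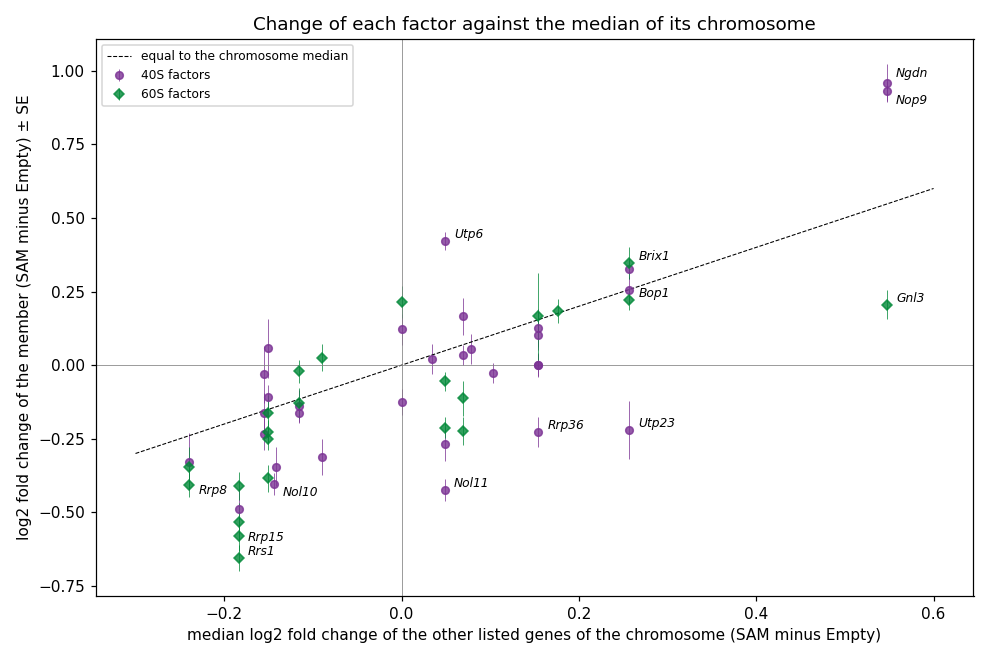
Each point is 1 of the 55 members, with its log2 fold change of SAM against Empty (y axis, whiskers of 1 SE) against the median of the same quantity over the other listed genes of its chromosome (x axis), and the dashed line marks equality. Members on chromosomes with low medians lie low and those with high medians lie high (Pearson r 0.78), while *Utp6* and *Nol11*, on the same chromosome, lie on opposite sides.

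With the median of the chromosome subtracted, 23 members were called lower and 6 higher, where 25.1% and 24.5% of the 14791 genes with a position were. Of the original calls, 17 of 23 falls and 5 of 11 rises were made again with the same sign, 11 were lost and 1 was made with the other sign, while 6 calls were gained. In SAM1, 33 members were called lower and 9 higher, where 36.8% and 35.4% of the genes with a position were. *Rrs1* (-0.46), *Rrp15* (-0.38), *Wdr12* (-0.34), *Wdr75* (-0.29) and *Nifk* (-0.21) were still called lower, and *Ngdn* (0.41) and *Nop9* (0.38) higher. Among the rises, *Rrp7a*, *Dcaf13*, *Nop2* and *Nob1* lost their calls, *Bop1* lost its call at -0.031, and *Gnl3* turned from 0.21 to -0.34 (limma adjusted p = 9.79e-05). Among the falls, *Utp3*, *Utp15*, *Nop53*, *Ebna1bp2*, *Noc2l* and *Mphosph10* lost theirs. *Utp6* (0.39) and *Nol11* (-0.46), both on chromosome 11 with a median of 0.049, kept theirs.

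The neighbours of the members were examined as well, in a window chosen after the chromosome values had been seen. For 29 members the median of the window was nearer to the member's own change than the chromosome median, and for 26 it was farther. The median change of other listed genes within 5 Mb was -0.62 around *Rrs1* (33 genes), -0.44 around *Rrp15* (52 genes), -0.46 around *Wdr75* (22 genes) and -0.41 around *Wdr12* (66 genes), whose own changes were -0.65, -0.58, -0.49 and -0.53. It was 0.63 around *Ngdn* and *Nop9*, whose windows share most genes, and 0.39 around *Brix1*. Around *Nifk* it was -0.051, against a change of -0.41, and around *Utp23* 0.37, against a change of -0.22. For *Utp6* and *Nol11*, both on chromosome 11, it was 0.26 (130 genes) and -0.10 (96 genes), against changes of 0.42 and -0.42. For *Gnl3* it was 0.17 (78 genes), near its change of 0.21 and below the median of 0.55 of chromosome 14. Over all members, r with the window median was 0.84 and rho 0.78.

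The gap between the lines ran less with position. With the median gap of the genes within 5 Mb, r was 0.39 and rho 0.40 over 55 members. The window median was 0.20 for *Utp23* and *Wdr75* and 0.15 for *Mphosph10*, against gaps of 0.31, 0.22 and 0.31. For *Nol6* it was -0.14, against a gap of -0.32. Around *Rrp1b* and *Nop14* it was 0.00060 and 0.048, against gaps of 0.51 and 0.32.

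The 40S and 60S factors were also unevenly placed. Of the 60S factors, 12 of 23 lay on chromosomes with a median below -0.1 and 5 on ones above 0.1, while of the 40S factors 11 of 32 lay on each. With the chromosome median subtracted, the 40S factors had a median of -0.036 and the 60S factors of -0.091, and the difference of the medians was 0.054 in place of 0.13. In the other factors the medians were -0.055 and -0.076 after the same step. The cause of the chromosome pattern was not tested.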

How the data were processed

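PolyA+ RNA-Seq of 9 MEF libraries (Empty, SAM1 and SAM2, 3 each) was analysed, with groups from the labels. The authors made directional libraries and, per the labels, used FastQC (0.11.0), TopHat2, Bowtie, SAMtools, HTSeq and DESeq2 with GRCm39. The values they deposited are a signal on the scale of read counts divided by DESeq2 size factors, for 15184 genes. Whether reads were counted by strand is not given in the sources used here. The lowest 7404 to 8160 values of each library could be turned into whole numbers of reads (100% of values checked, tolerance 0.1 reads). Reads per library were recovered with the same factor for all its genes. The members, all with more reads, were not among the values checked. Intervals for counting error take reads as independent and cover counting error only.

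From these values log2(value + 1) was fitted with limma (3.58.1, trend, R 4.3.3), first with 2 groups and then with 3 groups for each line. Two-sided p-values were adjusted over all 15184 genes (Benjamini-Hochberg, threshold 0.05). Since 1 was added to each value, fold changes of low genes are understated. The groups were fitted without a replicate block. Alternatives were a pseudocount of 10, a value above 10 in every library, quantile normalization, equal totals, the replicate block, edgeR (4.0.16) and DESeq2 (1.42.0) on recovered reads, omission of each library in turn, the lines averaged, subtraction of chromosome medians, and classes without *Rrp12*, *Nip7* and *Ftsj3*. The fits were tested on simulated data.

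Positions are from GENCODE vM39 on GRCm39, where 14791 gene names were found once, and promoters from RefSeq. The members and lists were chosen with earlier results of these data known. Any member could be named. Values in every library are given for the 8 largest rises and 8 largest falls among called members without overlap between SAM and Empty, the 6 widest gaps between the lines, every member of UtpA, UtpC and PeBoW, and the lowest and highest mean. Of other assembly factors, the 3 largest rises and falls of each class are named. Genes outside the table and the reads themselves were not analysed here.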

Additional observations from a re-analysis of the deposited data

Results flagged for a closer look

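For 30 of the 55 members the change from Empty differed between SAM1 and SAM2 by limma's test of that difference (SAM2 minus SAM1, log2 scale, limma adjusted p below the threshold), with 20 values above 0 and 10 below, where 60.3% of all genes were called. Between them *Rrp1b* stood highest (0.51), followed by *Nop14* (0.32), *Mphosph10* (0.31) and *Utp23* (0.31).

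Among the 40S factors, *Wdr75* (0.22), *Wdr43* (0.21) and *Nol11* (0.079) of UtpA were higher in SAM2. So were *Noc4l* (0.21), *Wdr3* (0.15), *Utp3* (0.14) and *Utp14a* (0.14). *Nol6* (-0.32), *Rrp9* (-0.18), *Utp18* (-0.14) and *Rrp36* (-0.11) were lower, as were the late factors *Rrp12* (-0.17), *Nob1* (-0.17) and *Bysl* (-0.12).

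Among the 60S factors, *Wdr12* (0.20), *Mak16* (0.17), *Nop53* (0.16), *Brix1* (0.14), *Rrp1* (0.14), *Gnl3* (0.13), *Noc3l* (0.11), *Rrp8* (0.095) and *Nop2* (0.086) were higher in SAM2, and *Rrp15* (-0.10), *Nol9* (-0.097) and *Noc2l* (-0.082) were lower. The cause of these differences was not tested. With 3 libraries a group, no library was tested for standing apart within its group. A chi-square per gene on recovered reads compared each pair of libraries of a group, as a description. It was 7.99 and 9.49 for the pairs with SAM1 replicate 2 and 1.46 for SAM1 replicates 1 and 3. Pairs in Empty had 11.5 to 13.8 and pairs in SAM2 1.54 to 2.33, although the fits use 1 estimate of the spread for all groups.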

How the results depend on the processing

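Scaling and position moved the members' counts most. With equal totals, SAM against Empty went from 11 higher and 23 lower to 21 and 13, and SAM1 against Empty from 14 and 30 to 24 and 18. With chromosome medians subtracted, 6 members were higher in SAM against Empty and 9 in SAM1 against Empty, and *Bop1* went from 0.22 to -0.031. Of the genes with a position, 24.5% and 35.4% were higher in these comparisons. With quantile normalization, SAM2 against SAM1 gave 12 higher and 16 lower in place of 20 and 10. The 40S median minus the 60S median became 0.054, 0.048, 0.10 and 0.0025 with chromosome medians subtracted (SAM, SAM1 and SAM2 against Empty and SAM2 against SAM1, from 0.13, 0.11, 0.14 and -0.027), 0.046 for SAM1 and 0.087 for SAM2 with quantile normalization, and 0.14 for SAM1 without the 3 factors with roles in both subunits.

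With each library left out in turn, the difference between the classes ran from 0.077 to 0.19 for SAM against Empty, from 0.11 to 0.16 for SAM2 against Empty and from -0.065 to -0.024 for SAM2 against SAM1, and the members lower in SAM2 than in SAM1 from 6 (without SAM2 replicate 1 or 3) to 10. The cause of these shifts was not tested. Correlations between libraries of the same replicate number, after group means were removed, averaged 0.053 (0.0024 to 0.12). Those between other libraries averaged -0.027 (-0.12 to 0.046). These small values do not settle whether replicate numbers mark pairs. With the replicate block, 11 members were higher and 23 lower in SAM against Empty, 14 and 32 in SAM1, 18 and 27 in SAM2, and 20 and 11 between the lines, and *Heatr1* was called (-0.14). edgeR and DESeq2 on the recovered reads gave 11 and 23, and 11 and 26, for SAM against Empty, and called 8168 and 8468 of all genes where limma called 8179. The other 237 values of counts and class differences stayed within their limits. Of the values of members given in every library, 540 kept their call or lack of one, 10 lost the call and 10 gained it. In 1, that of *Bop1*, the call was lost and the sign changed. Uncalled values could change sign too. *Nop14* went from -0.031 to 0.092 with equal totals. With chromosome medians subtracted, *Utp4* went from 0.034 to -0.020 and *Wdr43* from 0.13 to -0.017. *Gnl3*, which is outside that set, also changed sign with chromosome medians subtracted, from 0.21 to -0.34. The median of the genes within 5 Mb of it was 0.17, while that of its chromosome was 0.55. Over all members, equal totals removed 10 calls and added 10, and subtraction of chromosome medians removed 11 and added 6. Counting error was small for these genes, while 3 libraries a group limit the estimate of their spread.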
